A study of Homo sapiens with 8 samples.

Results

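U87 is a human glioblastoma cell line, and its HIF subunits and oxygen sensors were followed here after siRNA knockdown of RND3. The family was chosen by name and comprised 9 genes, namely HIF1A, EPAS1, ARNT, ARNT2, HIF1AN, EGLN1, EGLN2, EGLN3 and VHL. Probes were assigned through the RefSeq transcript that each array annotation gives, which left 11 probes for the 9 genes, out of 42405 probes and 19483 gene symbols on the array. All 11 probes were bright enough to be tested, and HIF1A and ARNT2 had 2 probes each.

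RND3 (RhoE) is an atypical small GTPase, and the labels call its knockdown RhoE KD and the non-silencing control NSC; these are siRND3 and siControl here. Total RNA was measured on 8 arrays. Each treatment had 3 arrays at 24 h after transfection and 1 array at 48 h. Every array held U87 cells reverse transfected with Lipofectamine RNAiMAX, and no array held untransfected cells or cells under a stated oxygen limit. Which of the RND3 siRNAs of the study's methods an array received is not stated, and no label says that replicates came from separate transfections, so p-values measure the spread between these arrays, which may be technical. Values are log2 of the background-corrected spot signal after quantile normalisation, averaged over the spots of a probe.

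HIF is a transcription factor made of an alpha subunit, HIF1A or EPAS1 (HIF-2 alpha), and a beta subunit, ARNT or ARNT2. When oxygen is present the prolyl hydroxylases EGLN1, EGLN2 and EGLN3 modify the alpha subunit, the VHL ubiquitin ligase recognises the modified form, and the protein is degraded. HIF1AN (FIH) hydroxylates an asparagine of the alpha subunit and blocks its contact with coactivators. Much of this control acts on the protein, whereas the arrays measured mRNA alone. EGLN1 and EGLN3 are themselves known HIF target genes, which is not so established for EGLN2.

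Since the 3 hydroxylases differ in this known response, the 250 bases before their RefSeq start sites (assembly GRCh38.p14) are given here, 5′ to 3′ on the strand of the gene. The core of the HIF site was searched on both strands as ACGTG and GCGTG, and capitals mark each match. The windows are chr1:231422288-231422537 on the minus strand for EGLN1, chr19:40798941-40799190 on the plus strand for the first of 2 start sites of EGLN2, and chr14:33951075-33951324 on the minus strand for EGLN3.
EGLN1: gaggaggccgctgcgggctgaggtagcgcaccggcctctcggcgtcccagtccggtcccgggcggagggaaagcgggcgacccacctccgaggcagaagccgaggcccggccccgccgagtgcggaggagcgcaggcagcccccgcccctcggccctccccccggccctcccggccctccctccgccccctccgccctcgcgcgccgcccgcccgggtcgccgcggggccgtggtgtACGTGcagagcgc
EGLN2: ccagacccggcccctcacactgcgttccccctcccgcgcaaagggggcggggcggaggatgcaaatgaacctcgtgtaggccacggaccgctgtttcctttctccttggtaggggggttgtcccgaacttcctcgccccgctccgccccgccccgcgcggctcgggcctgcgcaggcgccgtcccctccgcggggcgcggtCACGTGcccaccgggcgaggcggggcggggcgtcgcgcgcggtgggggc
EGLN3: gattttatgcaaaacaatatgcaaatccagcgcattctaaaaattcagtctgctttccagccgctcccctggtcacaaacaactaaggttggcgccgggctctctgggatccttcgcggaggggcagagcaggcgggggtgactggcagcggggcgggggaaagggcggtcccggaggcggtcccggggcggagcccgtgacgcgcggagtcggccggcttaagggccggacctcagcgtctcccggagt
EGLN1 held 1 match, whose first base lay at -13 from the start site. EGLN2 held the palindrome CACGTG, which reads as ACGTG on both strands, so its 2 matches at -49 and -48 overlap. No match was found in the EGLN3 window, nor in that of the second EGLN2 start site, ARNT or HIF1AN. HIF1A held GCGTG at -204 of 1 of its 2 start sites, and EPAS1 held it at -117. ARNT2 and VHL had no entry in the promoter table. Of all 35116 RefSeq start sites, 18.5% held ACGTG and 43.2% held either form, against 2 and 4 of the 9 start sites of this family. A match is a run of letters and was not tested as a binding site.

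The share of probes well above background was 68.3% to 70.7% per array, and arrays of a group at 24 h correlated at r between 0.991 and 0.995 over the tested probes. The targeted gene was checked first. RND3 gave log2 signals of 11.88, 11.91 and 11.90 on the siControl arrays at 24 h and of 10.12, 10.18 and 10.42 on the siRND3 arrays, and at 48 h 11.48 and 9.84. It fell by 1.66 on the log2 scale at 24 h (limma adjusted p 0.000345) and the single arrays at 48 h differed by -1.65. The siRND3 arrays filled row 1 of the slide and the siControl arrays row 2, so row and treatment cannot be told apart. Both arrays at 48 h lay in column 4 and those at 24 h in columns 1 to 3, so column and time cannot be told apart either. Of the glial and glioma markers, VIM, CD44, TNC and NES were well above background on all 8 arrays, OLIG2 on 7 and S100B on 1, while GFAP, SOX2 and PTPRZ1 were so on none. Among markers of other cell types, CDH1 and RBFOX3 were well above background on no array, whereas EPCAM (log2 signal 5.13 to 5.92), CD14 (6.32 to 6.84), VWF (5.95 to 6.47) and SNAP25 (9.80 to 10.90) were so on all 8. Their part in the results was not tested. In bulk RNA, fewer cells of a kind and less RNA per cell cannot be told apart.

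RND3 knockdown was accompanied at 24 h by higher EGLN2 and VHL mRNA, and at 48 h by higher EGLN2 and VHL and lower HIF1A mRNA. EGLN2 stood at 140% of the siControl level at 24 h and at 207% at 48 h. VHL stood at 127% and 147%, and HIF1A at 72.0% and 49.6%, of which only the value at 48 h passed the threshold. No call was made for EPAS1, ARNT, ARNT2, HIF1AN, EGLN1 or EGLN3 in the knockdown comparisons. At 24 h 2 of the 9 genes passed an adjusted p of 0.05 in limma, beside 16.4% of the 14805 genes tested. At 48 h 3 of the 9 passed, beside 27.6% of all genes, in a model that gives each single array at 48 h the spread found at 24 h. Both shares lie close to the background and are no result about the family as a whole.

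**Figure D1:**
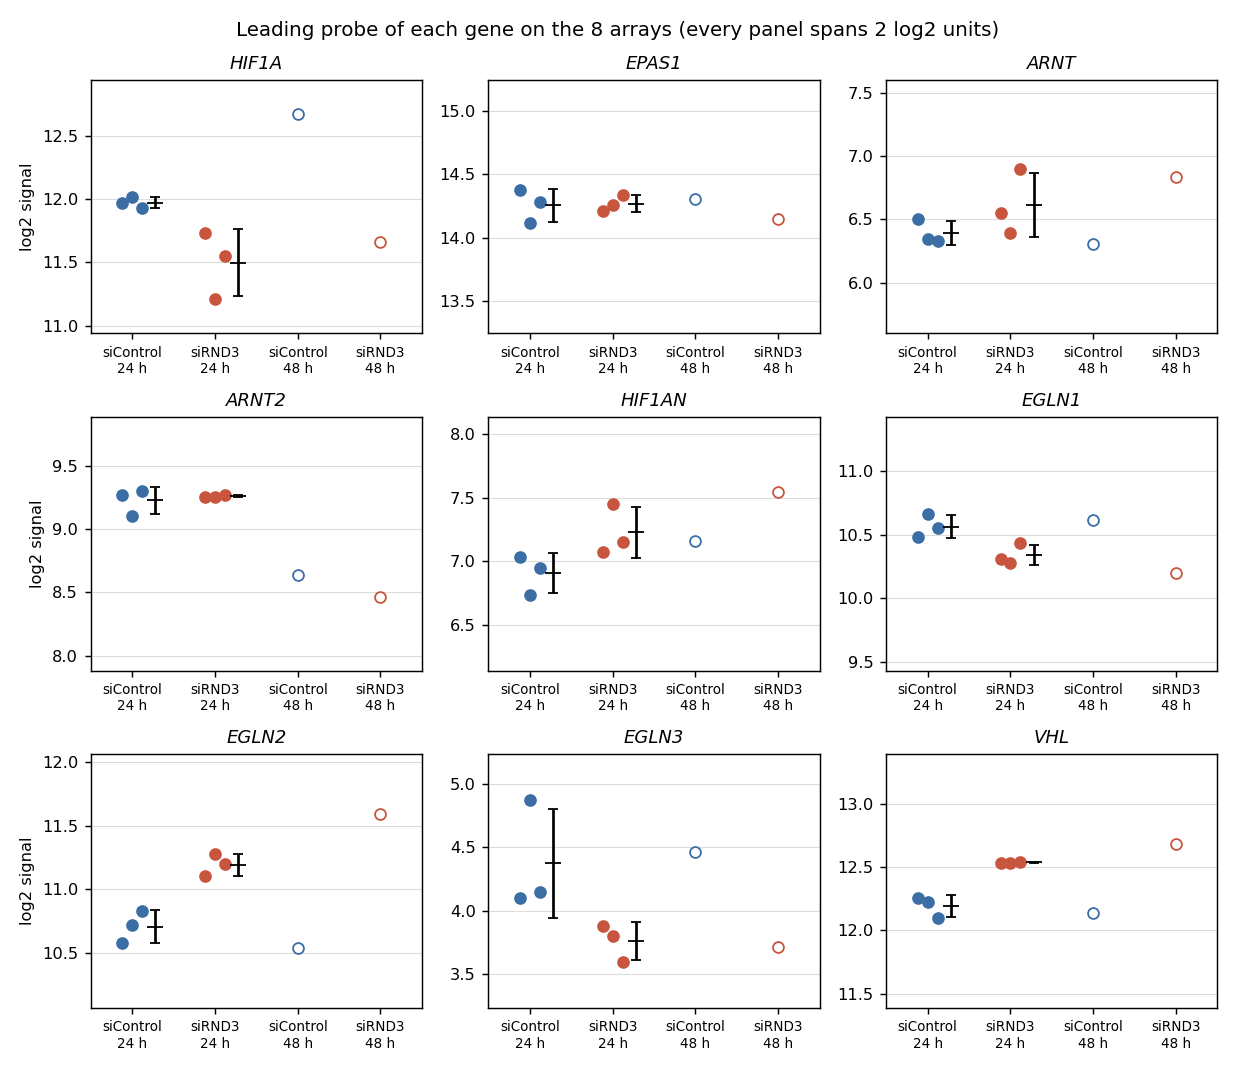
Log2 signal (vertical axis) of the leading probe of each gene on the 8 arrays, in 4 groups (horizontal axis). Points are arrays, filled at 24 h and open at 48 h, and bars are the mean ± SD of 3 arrays. EGLN2 and VHL lie higher in siRND3 cells at both times, HIF1A lies lower at both times, and EPAS1 overlaps between treatments at 24 h.

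The alpha subunit HIF1A was read by a probe with 10 spots per array and by a second probe with 1 spot, both annotated to the same RefSeq transcript. On the leading probe (A_24_P56388) the log2 signals were 11.97, 12.01 and 11.93 on the siControl arrays at 24 h and 11.73, 11.21 and 11.55 on the siRND3 arrays. At 48 h they were 12.67 in siControl and 11.66 in siRND3 cells. No siRND3 array reached the lowest siControl array, and the siRND3 arrays were the more spread, with an SD of 0.26 against 0.04 (n = 3 each). Between 8 and 10 spots of this probe were kept per array, and their SD within an array was 0.035 to 0.060, well under the spread between the siRND3 arrays. The difference at 24 h was -0.47 (SE 0.14, 95% interval -0.80 to -0.15, limma adjusted p 0.0749), short of the threshold. Without siRND3 replicate 1 it was -0.59 and passed (limma adjusted p 0.0442). It also passed with the authors' log2 values (adjusted p 0.0161), under normexp background correction (0.0107) and in SAM, the test named in the study's methods, and the limma adjusted p ran from 0.0107 to 0.182 over the alternatives.

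The second HIF1A probe (A_33_P3231277) gave 9.29, 9.39 and 9.10 on the siControl arrays at 24 h, 9.03, 8.76 and 8.93 on the siRND3 arrays, and 10.01 and 8.95 at 48 h. Its groups were also apart at 24 h, with a difference of -0.35 (SE 0.11, limma adjusted p 0.0914). At 48 h HIF1A fell by 1.01 on the leading probe (SE 0.24, limma adjusted p 0.0290) and fell by 1.05 on the second (SE 0.19, adjusted p 0.0120). The call on the leading probe was lost in 5 of 14 alternatives. These were no filter, the replicate block, and leaving out siControl replicate 1, siControl replicate 2 or siControl replicate 3. The second probe passed under all 13 alternatives that could be run on it. The later effect minus the earlier one was -0.54 on the leading probe (adjusted p 0.363) and -0.70 on the second (adjusted p 0.161), so limma did not call a difference between the times. The study itself singles out HIF1A as lowered in these samples, so its direction is no independent evidence.

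**Figure D2:**
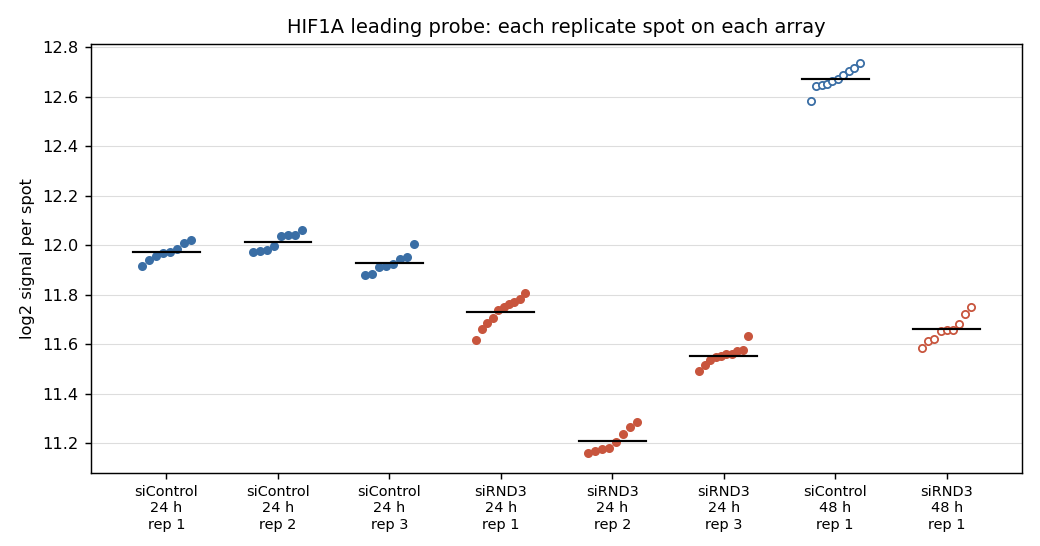
Log2 signal of every kept spot of the leading HIF1A probe (vertical axis) on each of the 8 arrays (horizontal axis); lines are array means, and open points are arrays at 48 h. Spots of an array lie close together (SD 0.035 to 0.060), the siRND3 arrays at 24 h lie at 11.21 to 11.73 and the siControl array at 48 h stands highest at 12.67.

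The order of HIF1A levels on the leading probe ran from the siRND3 arrays at 24 h (mean 11.50 ± 0.26, SD, n = 3) through the siRND3 array at 48 h (11.66) and the siControl arrays at 24 h (11.97 ± 0.04, SD, n = 3) to the siControl array at 48 h (12.67). The first neighbours in that order differed by 0.16 (limma adjusted p 0.638), within the spread of the siRND3 arrays. Between 24 h and 48 h in siControl cells the leading probe differed by 0.70 (SE 0.19, limma adjusted p 0.107) and the second by 0.75 (adjusted p 0.0585). In siRND3 cells the second probe differed by 0.05 (adjusted p 0.878). On these values the gap at 48 h went with a higher control and a knockdown array near its level at 24 h, each on 1 array. Neither probe was called between the times, and a difference of -0.47, short of the threshold, stood on the leading probe at 24 h.

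EPAS1, the alpha subunit of HIF-2, showed no such pattern. Its probe (A_23_P210210) gave 14.37, 14.12 and 14.28 on the siControl arrays at 24 h and 14.21, 14.26 and 14.34 on the siRND3 arrays, and the groups overlapped. The difference was 0.01, with a 95% interval of -0.21 to 0.23 (limma adjusted p 0.952). At 48 h the signals were 14.30 and 14.15, a difference of -0.16 (adjusted p 0.598). Whether EPAS1 and HIF1A differed in their response was not tested.

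ARNT, the constitutive beta subunit, gave 6.50, 6.35 and 6.33 on the siControl arrays at 24 h, 6.55, 6.40 and 6.89 on the siRND3 arrays, and 6.31 and 6.84 at 48 h. The groups at 24 h overlapped, and the highest value was that of siRND3 replicate 3. Neither the difference of 0.22 at 24 h (95% interval -0.11 to 0.55, limma adjusted p 0.349) nor that of 0.53 at 48 h (adjusted p 0.196) passed.

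ARNT2, a beta subunit best known from the nervous system, gave 9.27, 9.11 and 9.30 on the siControl arrays at 24 h and 9.25, 9.26 and 9.27 on the siRND3 arrays on its leading probe (A_23_P83579). The siRND3 values lay inside the siControl range, with a difference of 0.03 (95% interval -0.16 to 0.22, limma adjusted p 0.829). At 48 h the signals were 8.64 and 8.47, below every array at 24 h, and the treatments differed by -0.17 (adjusted p 0.486). ARNT2 was the only one of the 9 genes called between the times. It fell by 0.59 between 24 h and 48 h in siControl cells (SE 0.11, limma adjusted p 0.0459) and fell by 0.79 in siRND3 cells (SE 0.11, adjusted p 0.0111). Over all genes the percentages called in these comparisons were 5.17% and 12.8%. The call in siControl cells was lost when any 1 of the 6 arrays at 24 h was left out (adjusted p 0.0653 to 0.138, with the difference between -0.65 and -0.55), while that in siRND3 cells passed without each of the 6 (adjusted p 0.0202 to 0.0310).

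The second ARNT2 probe (A_33_P3366195) was dim and gave another picture, with 4.11, 2.90 and 3.74 on the siControl arrays at 24 h, 4.39, 3.97 and 4.15 on the siRND3 arrays, and 3.36 and 4.02 at 48 h. At 48 h it failed to clear background in siControl cells, as it did on 1 siControl array at 24 h, and it entered the test only through the siRND3 arrays. Its difference at 24 h was 0.58 (95% interval -0.14 to 1.31, limma adjusted p 0.264), and it was 0.24 without siControl replicate 2, 0.10 with the authors' values and 0.08 under normexp. At 48 h the siRND3 array was at least 1.57-fold higher on the scale used here. The log2 difference at 48 h was only 0.02 under normexp and 0.04 with the authors' values, so that bound does not hold under another background correction. It did not move with time as the leading probe did, at -0.22 in siControl cells (adjusted p 0.802) and -0.15 in siRND3 cells (adjusted p 0.854). The fall of ARNT2 with time therefore rests on 1 probe, and on the mean of both probes no change with time passed (limma adjusted p 0.352 and 0.231).

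EGLN2 (PHD1) was the only hydroxylase called higher. Its probe (A_24_P322395) gave 10.57, 10.72 and 10.83 on the siControl arrays at 24 h and 11.10, 11.28 and 11.20 on the siRND3 arrays, and 10.54 and 11.59 at 48 h. Every siRND3 array lay above every siControl array, at both times. EGLN2 rose by 0.49 at 24 h (SE 0.09, 95% interval 0.26 to 0.71, limma adjusted p 0.0236) and by 1.05 at 48 h (SE 0.16, adjusted p 0.00694). The call at 24 h ended without siControl replicate 1 (difference 0.42, adjusted p 0.0783), siControl replicate 2 (0.0747), siRND3 replicate 2 (0.0690) or siRND3 replicate 3 (0.0610), while that at 48 h held under all 14 alternatives. The effect at 48 h exceeded that at 24 h by 0.56 (SE 0.19, limma adjusted p 0.181), and siRND3 cells differed between the times by 0.40 (adjusted p 0.120), neither past the threshold. EGLN2 shares exons with a readthrough transcript of RAB4B, and the share of the signal from that transcript was not tested.

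EGLN1 (PHD2), usually the main hydroxylase of HIF1A, did not pass. It gave 10.48, 10.66 and 10.55 on the siControl arrays at 24 h, 10.31, 10.28 and 10.43 on the siRND3 arrays, and 10.62 and 10.20 at 48 h (A_23_P343935). At both times siRND3 was the lower, by a narrow gap at 24 h. The difference was -0.22 at 24 h (95% interval -0.43 to -0.02, limma adjusted p 0.146) and -0.42 at 48 h (adjusted p 0.102). Under normexp the difference at 24 h was -0.24 and passed (adjusted p 0.0386, range over the alternatives 0.0386 to 0.344). At 48 h EGLN1 passed with the authors' values (adjusted p 0.0392) and under normexp (0.0220), and the adjusted p ran up to 0.183.

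EGLN3 (PHD3) was dim. Its probe (A_33_P3256952) gave 4.10, 4.87 and 4.15 on the siControl arrays at 24 h, 3.88, 3.80 and 3.60 on the siRND3 arrays, and 4.46 and 3.71 at 48 h, and it was well above background on 7 of 8 arrays. It entered the test only through the siControl arrays, as 1 siRND3 array at 24 h was not well above background. The groups did not overlap, siRND3 being the lower, with siControl replicate 2 far above the rest. The difference was -0.61 at 24 h (95% interval -1.13 to -0.10, limma adjusted p 0.124) and -0.75 at 48 h (adjusted p 0.237). Without siControl replicate 2 the difference at 24 h was -0.36, with the authors' values it was -0.25 and under normexp -0.12, so its size depended on 1 array and on the background correction. SAM called EGLN3 at 24 h, and limma did so at 48 h without siControl replicate 2 (adjusted p 0.0449).

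HIF1AN, the asparaginyl hydroxylase, gave 7.04, 6.73 and 6.95 on the siControl arrays at 24 h, 7.08, 7.46 and 7.15 on the siRND3 arrays, and 7.16 and 7.55 at 48 h (A_23_P46964). The groups at 24 h did not overlap, but the lowest siRND3 and highest siControl arrays nearly met. Neither the difference of 0.32 at 24 h (95% interval 0.01 to 0.64, limma adjusted p 0.170) nor that of 0.38 at 48 h (adjusted p 0.331) passed.

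VHL, the substrate receptor of the ligase that marks HIF alpha for degradation, gave 12.26, 12.22 and 12.10 on the siControl arrays at 24 h and 12.53, 12.53 and 12.54 on the siRND3 arrays (A_33_P3419938). At 48 h the signals were 12.13 and 12.68. Each siRND3 array lay above every siControl array. VHL rose by 0.34 at 24 h (SE 0.07, 95% interval 0.16 to 0.52, limma adjusted p 0.0336) and by 0.55 at 48 h (SE 0.13, adjusted p 0.0292). The call at 24 h was lost when any 1 of the 6 arrays was left out, with adjusted p between 0.0683 and 0.133 and the difference between 0.30 and 0.38. At 48 h the call ended without siControl replicate 1 (adjusted p 0.0555), siControl replicate 2 (0.0595) or siControl replicate 3 (0.0508).

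**Figure D3:**
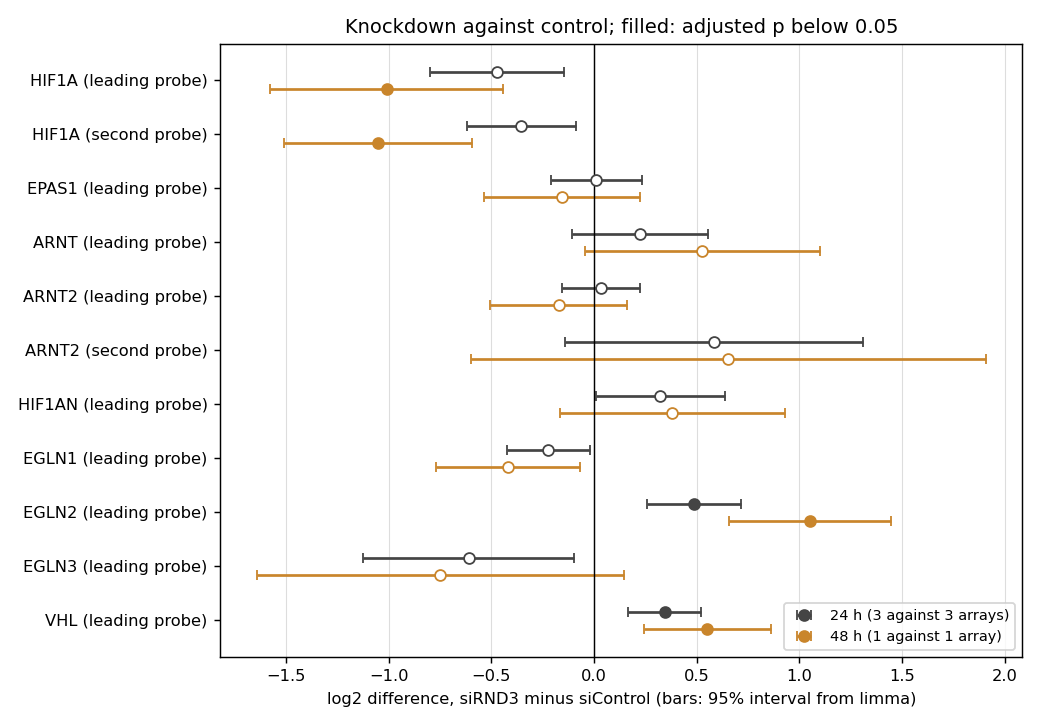
Log2 difference of siRND3 minus siControl (horizontal axis) for the 11 probes (vertical axis) at 24 h and 48 h. Points are limma estimates, bars their 95% intervals and filled points those with an adjusted p below 0.05. EGLN2 (0.49 and 1.05) and VHL (0.34 and 0.55) are filled at both times and HIF1A (-1.01 and -1.05) at 48 h.

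Of the 11 probes, 9 from 8 genes cleared background on each of the 6 arrays at 24 h, the exceptions being EGLN3 and the second ARNT2 probe. The siRND3 and siControl arrays did not overlap for 6 of these 9 (66.7%), beside 34.5% of all probes measured in the same way. These were 5 genes, with HIF1AN, EGLN2 and VHL higher and HIF1A and EGLN1 lower in siRND3 cells. For such probes an exact two-sided permutation test gives p = 0.1, the smallest that 3 arrays against 3 allow. SAM called 4 of the 9 genes, EGLN2 and VHL higher and HIF1A and EGLN3 lower, beside 18.3% of all genes.

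On each of these 9 probes the difference was larger in size at 48 h than at 24 h, and 7 had the same sign at both times, the exceptions being EPAS1 and the leading probe of ARNT2. The order of sizes turned for HIF1AN under scaling to the 75th percentile and on dropping either siControl replicate 1 or siRND3 replicate 1. The median size was 0.32 at 24 h and 0.53 at 48 h on the log2 scale. No such count or median was taken over all probes. At 48 h a difference is 1 array against 1 and is less precise (for EGLN2, SE 0.16 against 0.09 at 24 h). Less precise differences can be larger in size by themselves, so these values are no result about the family. Over all genes the share called was also larger at 48 h, at 27.6% against 16.4%. No member passed the test of the later minus the earlier effect, beside 4.24% of all genes, and 2 probes, the second of HIF1A and that of EGLN2, had an unadjusted limma p under 0.05, beside 18.4% of all probes. The leading HIF1A probe differed by -0.54 between the times, and the remaining 8 probes by -0.21 to 0.30. Apart from HIF1A, ARNT2 and EGLN2 in siRND3 cells, no probe moved between the times by more than 0.26 in siControl cells or 0.32 in siRND3 cells, and none of these passed.

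Genes whose profiles most resembled those of the alpha subunits were sought by Pearson correlation over the 8 arrays, which share treatment and time and so are not independent points. For HIF1A these were ABHD17B (r = 0.990), MAP2K4 (r = 0.980), a kinase upstream of JNK, and FAM222B (r = 0.979). For EPAS1 they were CACYBP (r = 0.949), TERF2 (r = 0.947), a telomere-binding protein, and NBPF14 (r = 0.945). None of these EPAS1 neighbours was called at 24 h (limma adjusted p 0.894 to 0.920). Of the HIF1A neighbours, FAM222B was called lower at 24 h (-0.37, limma adjusted p 0.0334), while ABHD17B (0.199) and MAP2K4 (0.155) were not called. Each gene was picked for its high r among all tested probes with a gene name, and over 8 arrays such a choice can by itself give high values.

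The wider pathway was read from 4 lists in the same fit. Of 69 genes tested at 24 h, 2 were higher and 11 lower in siRND3 cells, and 6 were higher and 18 lower at 48 h. Over all genes 7.16% were called higher and 9.26% lower at 24 h, and 14.3% and 13.3% at 48 h. Leaving out siControl replicate 1 took the count of 13 at 24 h to 4, and it was 5 without siControl replicate 2 or siControl replicate 3 and 7 without siRND3 replicate 2.

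Among 16 genes of the VHL ligase and of HIF stability, SART1 rose and HSP90AB1 and WSB1 fell at 24 h, and the other 13 did not pass. The median difference of this list was 0.03, against 0.05 over all probes. SART1, known as a factor that promotes HIF1A degradation as well as for its part in splicing, gave 7.67, 7.65 and 7.70 on the siControl arrays at 24 h, 8.12, 8.03 and 8.14 on the siRND3 arrays, and 6.85 and 8.34 at 48 h. It rose by 0.42 (limma adjusted p 0.0146) at 24 h and by 1.49 (adjusted p 0.000789) at 48 h. The call at 24 h ended without siControl replicate 1, siControl replicate 2 or siControl replicate 3 (adjusted p up to 0.0626). HSP90AB1, a chaperone that stabilises HIF1A among many clients, differed by -0.76 and -0.71 on its 2 probes at 24 h (limma adjusted p 0.0133 and 0.00448) and by -1.02 and -1.01 at 48 h. Without siControl replicate 1 or siControl replicate 3 the call at 24 h ended on the first of these probes (adjusted p up to 0.0566), whereas the second passed under all 16 alternatives. WSB1, a ubiquitin ligase subunit reported to act on VHL protein, fell by 0.65 at 24 h (limma adjusted p 0.0133) and fell by 0.91 at 48 h, with the earlier call lost without siControl replicate 1 or siControl replicate 3 (adjusted p up to 0.0556). At 48 h SIAH1 and USP20 were also called higher, by 0.64 on 1 of 2 SIAH1 probes (limma adjusted p 0.0243) and by 0.77 for USP20 (adjusted p 0.0362). Both calls ended without siControl replicate 1, siControl replicate 2 or siControl replicate 3, and that of USP20 also without siRND3 replicate 3 (adjusted p up to 0.0619 for SIAH1 and 0.0750 for USP20).

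Of 17 coactivators and repressors of HIF, HDAC4 was called at 24 h, where it rose by 0.35 on 1 of its 2 probes (limma adjusted p 0.0307), and the other 16 did not pass. That call was lost in 6 of 17 alternatives, namely with the replicate block and without any 1 array at 24 h other than siRND3 replicate 1 (adjusted p up to 0.109). The median of this list was 0.07 at 24 h and 0.19 at 48 h. Among those called at 48 h, HDAC4 was higher and CITED1 and SIRT1 were lower, with CITED1 at -1.51 (limma adjusted p 0.0280). The HDAC4 call at 48 h was lost in 7 of 14 alternatives, among them each siControl replicate and siRND3 replicate 2 left out (adjusted p up to 0.103). CITED1 was at -0.46 under normexp and lost its call without a filter or with the replicate block (adjusted p up to 0.0674). Among other factors of the bHLH-PAS family, to which HIF belongs, 7 of 10 on the array were tested. NPAS2, a partner in the circadian clock, fell by 0.61 at 24 h (limma adjusted p 0.00703) and fell by 1.46 at 48 h (adjusted p 0.00132). NPAS1 differed by 0.00 at 24 h and rose by 1.66 at 48 h (limma adjusted p 0.0110), a rise of 0.66 under normexp that passed too.

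Of 29 HIF target genes tested (EPO was not), 8 fell and none rose at 24 h, which is 27.6% against 9.26% of all genes called lower, and 13 fell and none rose at 48 h, which is 44.8% against 13.3%. The other 21 at 24 h and 16 at 48 h did not pass. Without siControl replicate 1 the count of 8 became 2, NDRG1 and DDIT4, which is 6.90% against 5.04% of all genes. Leaving out siControl replicate 2 likewise left 2 (6.90% against 5.59% of all genes), and leaving out siControl replicate 3 left 3 (10.3% against 4.78%). Without siRND3 replicate 1 the count was 4 (13.8% against 7.44%), and without siRND3 replicate 2 it was 3 (10.3% against 6.82%). Without siRND3 replicate 3 it was 6 (20.7% against 7.73%), among them KDM3A, which was not one of the 8. The count at 48 h was 11 to 16 when 1 array was left out. Their median difference was -0.23 at 24 h and -0.52 at 48 h, against 0.05 over all probes at both times. NDRG1, a stress-response gene, gave 14.52, 14.27 and 14.37 on the siControl arrays at 24 h, 13.56, 13.70 and 13.76 on the siRND3 arrays, and 14.51 and 12.57 at 48 h. It fell by 0.72 at 24 h (limma adjusted p 0.00705) and fell by 1.94 at 48 h (adjusted p 0.000956).

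VEGFA, the angiogenic growth factor, gave 12.64, 12.74 and 12.52 on the siControl arrays at 24 h, 12.09, 11.86 and 12.13 on the siRND3 arrays, and 12.84 and 10.59 at 48 h. It fell by 0.61 at 24 h (limma adjusted p 0.0153) and fell by 2.25 at 48 h (adjusted p 0.000714), and it too is named by the study as lowered in these samples. DDIT4, an inhibitor of mTOR signalling, fell by 0.67 at 24 h (limma adjusted p 0.00298) and fell by 1.41 at 48 h, and ANKRD37 fell by 0.48 (adjusted p 0.0377) and fell by 1.01. NDRG1 and DDIT4 passed at 24 h under all 17 alternatives, while VEGFA lost its call without siControl replicate 1 or siControl replicate 2 and ANKRD37 without any 1 array at 24 h other than siRND3 replicate 1, with adjusted p up to 0.0635 and 0.120 over the alternatives. Of the 33 RefSeq start sites found for 24 genes of this list, 19 (57.6%) held ACGTG in the 250 bases before them, against 18.5% of all start sites. The list was drawn up from known HIF target genes, so a higher share could be foreseen and is no result of these data. These windows also had a higher median GC content (68.4% against 58.0%) and more often held CACGTG (24.2% against 6.34%). No test of the lists was made, and the lists were chosen with earlier results of these samples known.

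**Figure D4:**
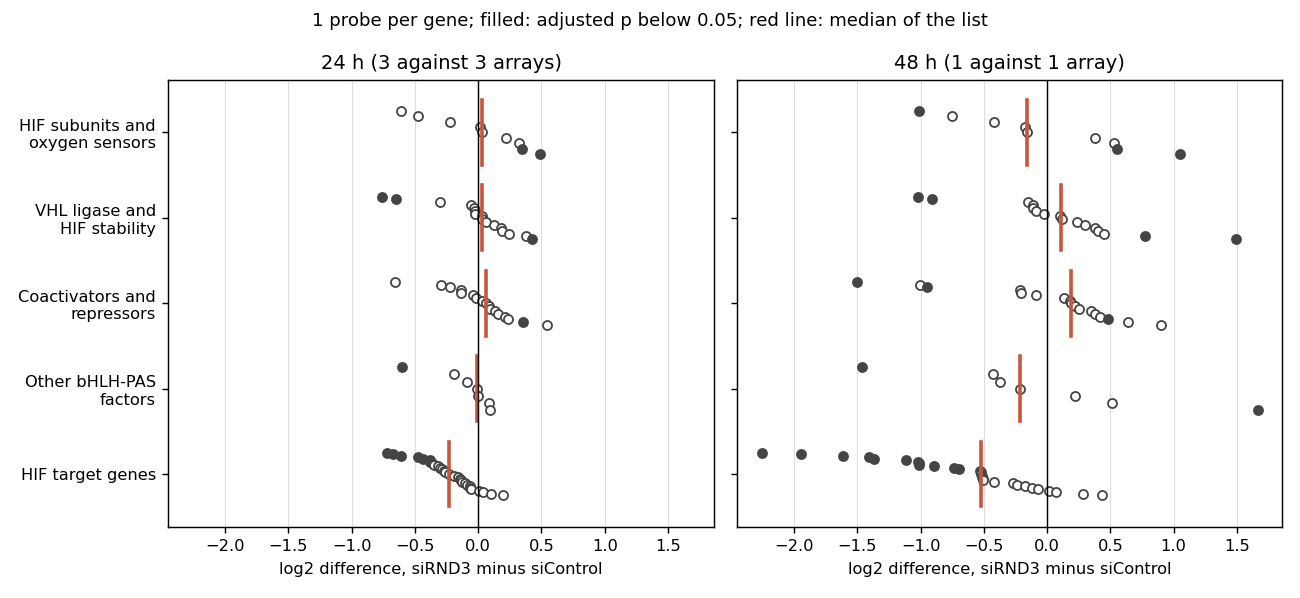
Log2 difference of siRND3 minus siControl (horizontal axis) for 1 probe per gene of the family and of 4 lists (vertical axis), at 24 h on the left and 48 h on the right. Points are genes, filled where the adjusted p is below 0.05, and red lines are medians. The HIF target genes lie mostly below 0, with medians of -0.23 and -0.52, while the family itself spreads to both sides.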

How the data were processed

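Total RNA of U87 cells was hybridised to 8 one-colour (Cy3) human arrays, 1 per sample, and groups were taken from the labels for treatment and time. The scanner files deposited by the authors, written by Agilent Feature Extraction 10.7.3.1, give each spot's intensity on a linear scale, already corrected for background within the array. The authors also deposited log2 values, whose rank order within each array matched the spot median signal (lowest Spearman correlation 1), and these served as an alternative.

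Log2 of this intensity was normalised by quantiles across all 8 arrays. Control spots (4259 of 62976) and spots marked as outliers (0.364% to 0.530% per array) were then left out, and the spots of a probe were averaged. No spot was saturated. A probe was well above background where at least 50% of its spots were so marked, and the 28759 probes that were so on all 3 arrays of a group at 24 h were tested. Transcript accessions were matched to RefSeq (GRCh38.p14), which named 25422 probes. The arrays were annotated on another build, so probe coordinates are not given.

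Groups at 24 h were compared with limma 3.58.1 in R 4.3.3, with Benjamini-Hochberg adjustment over all tested probes and a threshold of 0.05. The comparisons with 48 h used a 4-group fit of all 8 arrays. A gene was called when at least 1 probe passed and none passed the other way. The leading probe is that with the highest mean at 24 h. For a group in which no array cleared background, the fold is a lower bound against the higher of its own value and the lowest signal well above background. All members were named, and of each list the genes called at 24 h, up to 4 in each direction by size, or all where 5 or fewer were counted. CA9, among the latter, was named for its difference between the times. Members, lists and rules were chosen with earlier results of these data known. Scripts were tested on simulated data. The number of arrays limits the precision.

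Tried as alternatives were 75th percentile scaling, normexp (offset 50, on the spot median), the authors' log2 values, normalising the arrays at 24 h alone, no filter, a filter requiring every array at 24 h, SAM at a false discovery rate of 5% over the 20 assignments, a replicate block, all arrays in the fit, array weights, the mean of a gene's probes, and leaving out each array at 24 h. The value of 1 list gene at 48 h is not reported here.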

Additional observations from a re-analysis of the deposited data

Results flagged for a closer look

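By the limma test of the effect at 48 h minus that at 24 h, 5 of the 69 pathway list genes were called, beside 4.24% of all genes. None of the 9 members was called, which with so few genes is no result about the family. This test compares 1 array of each treatment at 48 h with 3 at 24 h. The difference was -1.64 for VEGFA on its leading probe (adjusted p 0.0250) and -1.47 on the second probe (adjusted p 0.0299). It was -1.22 for NDRG1 (adjusted p 0.0370), -1.18 for BNIP3 (adjusted p 0.0384) and -1.08 for CA9 (adjusted p 0.0309), all HIF target genes. CA9, a carbonic anhydrase, gave 10.08, 9.96 and 9.98 on the siControl arrays at 24 h, 9.73, 9.80 and 9.64 on the siRND3 arrays, and 10.77 and 9.40 at 48 h. SART1 moved the other way, at 1.07 (adjusted p 0.0269). Each of these 6 calls was lost without siControl replicate 1, siControl replicate 2 or siControl replicate 3, and without siRND3 replicate 1. Over the alternatives the adjusted p reached 0.115 for VEGFA and BNIP3, 0.116 for SART1, 0.125 for CA9 and 0.135 for NDRG1.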

How the results depend on the processing

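The direction of EGLN2, VHL and HIF1A in the knockdown comparisons held under every alternative. Signs were counted for all members in the knockdown comparisons, and for HIF1A, ARNT2 and EGLN2 in the comparisons of the times given here. List genes called in the knockdown comparisons or in the effect at 48 h minus that at 24 h were counted too. In this set 10 of the alternative values turned in sign, none of them called. Values outside it, such as the later minus the earlier effect of HIF1AN, were not counted. EPAS1 at 24 h was -0.059 without siControl replicate 2, the lowest, and 0.070 without siControl replicate 1, the highest, and it was -0.022 without siRND3 replicate 3. ARNT2 on its leading probe lay at 24 h between -0.027 (siControl replicate 2 left out) and 0.071 (siControl replicate 3 left out), and was 0.24 at 48 h on the mean of both probes. Its second probe between the times in siControl cells was 0.0011 under scaling to the 75th percentile and ran from -0.56 without siControl replicate 2 to 0.045 without siControl replicate 1. The second HIF1A probe between the times in siRND3 cells was -0.0027 with the authors' values, -0.0052 under normexp and -0.032 with the replicate block, and ran from -0.027 without siRND3 replicate 2 to 0.11 without siRND3 replicate 1. The 2 members called at 24 h became 4 under normexp and 4 in SAM, and 0 to 2 when 1 array was left out, with none called without siControl replicate 1, siControl replicate 2, siRND3 replicate 2 or siRND3 replicate 3, and 1 without siControl replicate 3. The 3 at 48 h ran from 2 to 4, and the count of 0 for the difference between the times held throughout. Between the times in siControl cells the 1 member called became 0 under scaling to the 75th percentile or without a filter, 2 under normexp, with the authors' values, with the filter on all arrays or with array weights, and 0 to 1 when 1 array was left out; on the mean of probes, and without siRND3 replicate 2, the gene called was HIF1A, higher at 48 h. In siRND3 cells it became 0 on the mean of probes. The 13 list genes called at 24 h became 20 under normexp and 4 to 10 when 1 array was left out. Over all genes, the 2431 called at 24 h ran from 1055 to 1879 when 1 array was left out, and were 3176 under normexp and 2710 in SAM. The 4086 at 48 h ran from 3079 to 4108 when 1 array was left out, and were 4648 under normexp. Between the times, the 766 in siControl cells ran from 63 to 655 and the 1896 in siRND3 cells from 1047 to 1662 when 1 array was left out. The 628 whose effect differed between the times ran likewise from 6 to 217, and were 1069 under normexp and 0 with the replicate block. Counts of members and list genes are to be read beside these totals, and a count of 0 means little where few genes were called. The share called higher between the times moved from 23.0% to 33.4% in siControl cells and from 28.2% to 39.8% in siRND3 cells under normexp. Same-numbered arrays at 24 h did not deviate together (r = 0.002, -0.012 and 0.129), so the numbers were not taken as pairs. With the replicate block 0 members and 7 list genes were called at 24 h, 2 members at 48 h, and 0 members in either comparison between the times, while over all genes 1216 were called at 24 h and 2649 at 48 h. The cause of these shifts was not tested. EGLN3 and the second ARNT2 probe lay near background, and their values also moved without siControl replicate 2.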
